A study of Homo sapiens with 6 samples.

Results

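The genes described here are 10 long noncoding genes whose introns carry small nucleolar RNAs (snoRNAs): GAS5, SNHG1, SNHG3, SNHG5, SNHG6, SNHG7, SNHG8, SNHG12, SNHG15 and SNHG16. They were chosen by name, with earlier results of these data known, and each has 1 of the 56303 gene entries in the deposited count table. Cells were labelled as T24, a widely used human bladder cancer line, and as wild type. They received either a control siRNA (siNC) or siRNA against the F-box gene FBXL6 (siFBXL6), with 3 libraries for each treatment. The label endings -1, -2 and -3 were read as replicates, which is an assumption, and which siRNA against FBXL6 was used is not given. The growth conditions and the batch label are the same for all 6. Libraries were made from 2 μg of RNA each with a stranded mRNA kit and held between 56814946 and 60968158 counts. RNA was sequenced to look for molecular changes after treatment with siRNA against FBXL6. Nothing in the labels says that the 3 libraries of a group came from separate cultures, so p-values measure only the spread between these libraries, which may be technical.

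A snoRNA host gene is transcribed as 1 long precursor. Splicing releases the introns, from which the snoRNAs are trimmed, and joins exons that often hold no long reading frame. The spliced RNA of several hosts is bound by ribosomes and removed by nonsense-mediated decay, so its level depends on decay and translation as well as on transcription. Box C/D snoRNAs guide ribose methylation of ribosomal RNA, and box H/ACA snoRNAs guide its pseudouridylation. Several host genes are described as starting with a C followed by a run of pyrimidines, the terminal oligopyrimidine (TOP) start that they share with ribosomal protein genes and through which mTORC1 controls translation. GAS5, SNHG1 and SNHG16, among others, have been studied in bladder carcinoma.

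The start of the RNA is shown for 4 members, because the TOP start is the sequence feature through which host genes are tied to translation. SNHG3 and SNHG16 are the members with the largest changes, SNHG12 has the longest pyrimidine run, and SNHG5 has a run at its first base. Each window spans 30 bases before and 30 bases from the RefSeq start (GRCh38.p14), 5′ to 3′ on the transcribed strand, and capitals mark a C within 5 bases of the start and the C or T bases that follow it, together at least 5, whatever base comes before. The windows lie at chr1:28505913-28505972 on the plus strand for SNHG3, chr17:76557734-76557793 on the plus strand for SNHG16, chr1:28581844-28581903 on the minus strand for SNHG12 and chr6:85678704-85678763 on the minus strand for SNHG5.
SNHG3: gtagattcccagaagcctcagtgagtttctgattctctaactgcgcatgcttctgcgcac
SNHG16: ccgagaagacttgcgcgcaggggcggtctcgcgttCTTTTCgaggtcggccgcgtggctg
SNHG12: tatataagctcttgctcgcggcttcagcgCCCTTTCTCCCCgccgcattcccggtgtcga
SNHG5: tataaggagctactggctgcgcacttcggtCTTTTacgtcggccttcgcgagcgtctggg

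Such a run was found in 5 of the 8 members that the RefSeq promoter table holds (SNHG5, SNHG7, SNHG8, SNHG12 and SNHG16), searched on the transcribed strand alone. SNHG6 and SNHG15 were not among the 8. The same search found a run in 58 of 78 ribosomal protein promoters (74.4%), in 8 of 21 promoters of other noncoding snoRNA hosts (38.1%) and in 7408 of all 35116 promoters (21.1%). The run of SNHG12 was 12 bases long and began 1 base before the annotated start. In SNHG5, SNHG7 and SNHG16 a T comes directly before the run counted. In SNHG3, GAS5 and SNHG1 no C in that interval was followed by enough C or T bases to reach this length. Annotated starts differ between sources. RefSeq places the start of SNHG3 at base 28505943, where the deposited table starts RCC1, and the table starts SNHG3 37 bases further on. The starts lie further apart for SNHG12 (28581873 in RefSeq, 28582983 in the table), GAS5 (173869045 and 173868882) and SNHG8 (118278762 and 118278709). The presence or absence of a run refers to the RefSeq start.

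The spans in the table hold 36 snoRNA genes of RefSeq. GAS5 (chromosome 1 of GRCh38, 173863900 to 173868882, minus strand) carries 11 of them, of which 10 are of the box C/D kind, and SNHG1 (chromosome 11, 62851988 to 62855914, minus strand) carries 9. SNHG16 carries 3, SNHG5 carries 2, and SNHG6 carries 1, all box C/D. Box H/ACA snoRNAs lie in SNHG3 and SNHG7 (2 each), in GAS5, SNHG8 and SNHG15 (1 each) and in SNHG12, which holds 3 of them beside 1 box C/D snoRNA. The exons that were counted take up very different shares of the spans of the hosts. They take up 95.6% of the span of SNHG1 and 92.6% of that of SNHG15, but 26.4% of that of SNHG6 and 15.7% of that of SNHG5. Where exons fill most of a span, a count can include RNA that retains introns. How much of each count this makes up was not measured.

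The gene targeted by the siRNA gave no clear check of the labels. FBXL6 had 362, 414 and 398 counts under the siNC label and 398, 344 and 350 counts under the siFBXL6 label, so the groups overlapped. Its log2 fold change, siFBXL6 over siNC throughout, was -0.13 with a 95% interval of -0.31 to 0.05, and it did not pass edgeR's test (adjusted p = 0.247). When libraries were left out singly, it was between -0.20 and -0.09, also not called. Every direction given here is therefore between libraries as labelled. The housekeeping gene ACTB had the same mean in both groups, 1168 CPM (counts scaled to library size with TMM factors).

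All 10 members had enough counts to be tested, with 308 to 3700 counts in a library. Against siNC, 2 members were higher in the libraries labelled siFBXL6 (SNHG3 and SNHG16) and 1 was lower (SNHG15) at an adjusted p under 0.05 in edgeR's quasi-likelihood test, adjusted over 21298 genes. That is 30% of the members, beside 40.2% of all genes tested, of which 20.5% were higher and 19.8% lower. A share of this size is not a result about host genes as a class. The share called also depends on how many counts the genes have, which was not matched in any share compared here. For 6 of the 10 members the values of siNC and siFBXL6 were wholly apart, beside 48.2% of all genes. The median log2 fold change of the members was 0.06, and that of all genes was -0.01. The median of the members was 0.03 without siNC replicate 1 or without siFBXL6 replicate 3, and 0.04 with library size alone. Their median absolute log2 fold change was 0.10, beside 0.18 over all genes, and 0 of the 10 members changed by 1.5-fold or more.

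**Figure D1:**
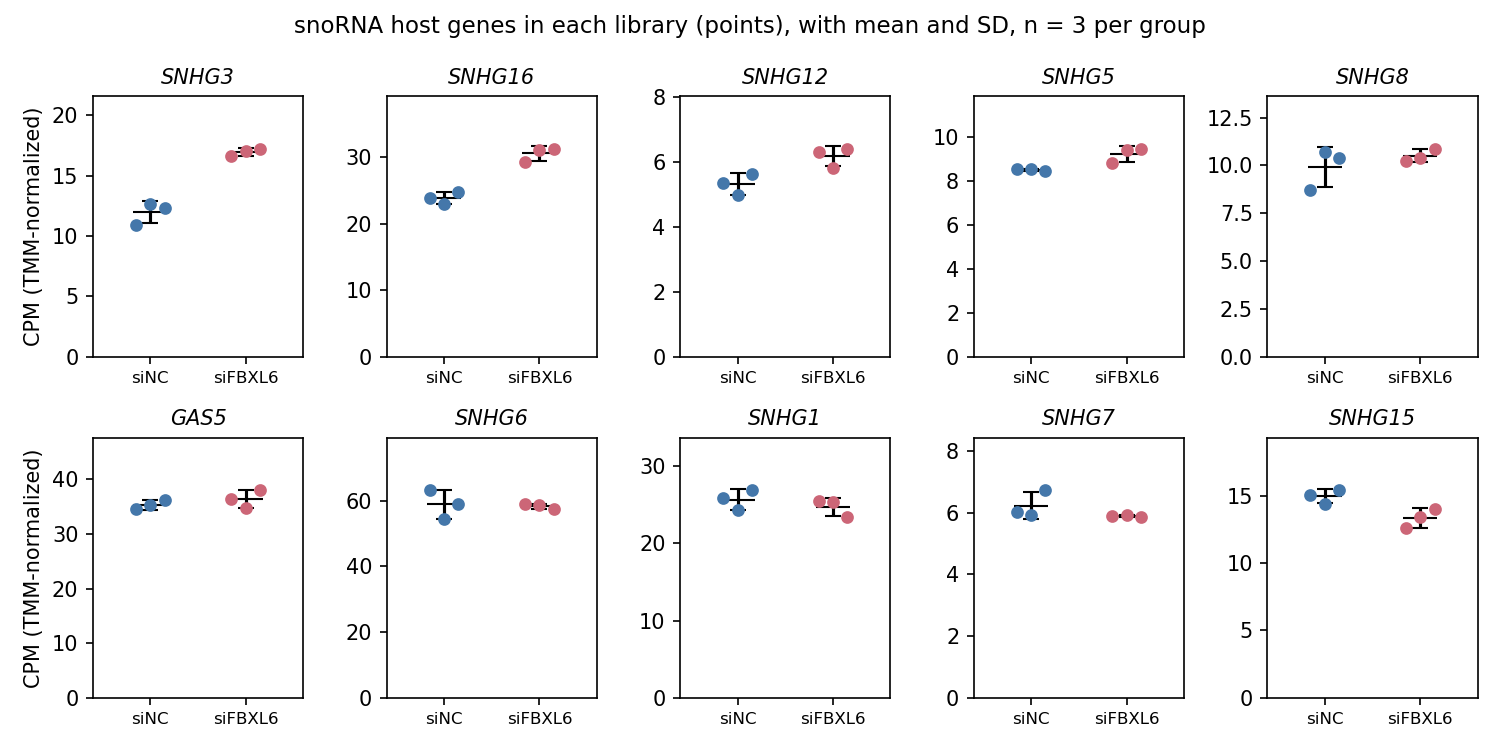
Normalized counts (CPM, vertical axes from 0) of the 10 host genes, with each library as a point and the mean and SD of the 3 libraries of a group in black, ordered by log2 fold change. SNHG3 and SNHG16 separate upward in the libraries labelled siFBXL6 and SNHG15 downward, while GAS5, SNHG6, SNHG1 and SNHG8 overlap.

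SNHG3 (chromosome 1, 28505980 to 28510892, plus strand) hosts SNORA73A and SNORA73B, H/ACA snoRNAs that take part in the cleavage of the ribosomal RNA precursor. It was measured at 10.9, 12.6 and 12.3 CPM in the libraries labelled siNC and at 16.6, 17.0 and 17.2 CPM in those labelled siFBXL6. All 3 of the latter lay above all 3 of the former. SNHG3 rose 1.42-fold, a log2 fold change of 0.50 (standard error, SE, 0.062, 95% interval 0.38 to 0.63, adjusted p = 3.54e-08 in edgeR's test). The exact two-sided permutation test gave p = 0.1, the smallest that 3 libraries against 3 allow.

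SNHG12 (chromosome 1, 28578538 to 28582983, minus strand) hosts SNORA16A, SNORA44, SNORA61 and SNORD99. It was at 5.37, 4.99 and 5.64 CPM with siNC and at 6.30, 5.83 and 6.42 CPM with siFBXL6. The groups did not overlap, but the gap between them was small against their spread. The log2 fold change of 0.21 (SE 0.09, 95% interval 0.03 to 0.40) missed the threshold (adjusted p = 0.0557 in edgeR's test). It passed when siNC replicate 3 or siFBXL6 replicate 2 was left out (adjusted p = 0.0408 and 0.0465, within 0.0408 to 0.202 over the libraries left out in turn).

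SNHG15 (chromosome 7, 44983023 to 44986961, minus strand) hosts SNORA9 and encodes a short-lived RNA. It was at 15.1, 14.4 and 15.4 CPM with siNC and at 12.6, 13.4 and 14.0 CPM with siFBXL6, so each library labelled siFBXL6 was below each labelled siNC. SNHG15 fell by 0.17 on the log2 scale (SE 0.061, 95% interval -0.29 to -0.04, adjusted p = 0.0277 in edgeR's test). This call was not stable. It was lost with DESeq2 (adjusted p = 0.0905) and without siNC replicate 1 (0.0513), siNC replicate 3 (0.0945), siFBXL6 replicate 1 (0.152) or siFBXL6 replicate 2 (0.0643).

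SNHG7 and SNHG8, also H/ACA hosts, did not pass the test. SNHG7 (chromosome 9, 136721366 to 136728184, minus strand) was counted 352, 366 and 387 times with siNC and 356, 357 and 353 times with siFBXL6. After normalization the groups just failed to overlap, with a log2 fold change of -0.08 (SE 0.087, adjusted p = 0.505 in edgeR's test), which was -0.02 without siNC replicate 3. SNHG8 (chromosome 4, 118278709 to 118279823, plus strand) was counted 511, 660 and 596 times with siNC and 620, 627 and 656 times with siFBXL6. Its spread in siNC came mainly from the low value of replicate 1. Its log2 fold change was 0.08 (95% interval -0.07 to 0.23), and without siNC replicate 1 it was -0.00 (adjusted p = 0.971 in edgeR's test, within 0.217 to 0.971 over the libraries left out in turn).

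Among the box C/D hosts, SNHG16 stood out. SNHG16 (chromosome 17, 76557766 to 76565348, plus strand) hosts SNORD1A, SNORD1B and SNORD1C, and its spliced RNA has been studied as an oncogenic transcript. It was at 23.9, 23.0 and 24.8 CPM in the libraries labelled siNC and at 29.4, 31.1 and 31.3 CPM in those labelled siFBXL6. The lowest library labelled siFBXL6 was above the highest labelled siNC. SNHG16 rose 1.28-fold, a log2 fold change of 0.36 (SE 0.047, 95% interval 0.26 to 0.45, adjusted p = 1.25e-07 in edgeR's test, exact two-sided permutation p = 0.1).

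GAS5, named for its growth arrest-specific transcript and a classical substrate of nonsense-mediated decay, was at 34.5, 35.2 and 36.3 CPM with siNC and at 36.3, 34.7 and 38.0 CPM with siFBXL6. The groups overlapped. Its log2 fold change was 0.04, with a 95% interval of -0.05 to 0.13 (adjusted p = 0.478 in edgeR's test). SNHG1, the host of the SNORD25 to SNORD31 cluster and another decay substrate, was at 25.8, 24.2 and 26.9 CPM with siNC and at 25.5, 25.4 and 23.4 CPM with siFBXL6. These values overlapped too, with a log2 fold change of -0.05 (95% interval -0.15 to 0.05, adjusted p = 0.448 in edgeR's test). When libraries were left out singly, GAS5 was between 0.01 and 0.07 and SNHG1 between -0.09 and -0.01, the values nearest 0 coming without siFBXL6 replicate 3.

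SNHG6 (chromosome 8, 66921684 to 66926398, minus strand), the host of SNORD87, had the highest count of the 10. It was at 63.3, 54.4 and 59.0 CPM with siNC and at 58.8, 58.6 and 57.4 CPM with siFBXL6. The 3 libraries labelled siFBXL6 lay within the range of the siNC libraries. The log2 fold change was -0.01 (95% interval -0.10 to 0.07, adjusted p = 0.818 in edgeR's test). SNHG5 (chromosome 6, 85660950 to 85678736, minus strand), which hosts SNORD50A and SNORD50B, was at 8.53, 8.53 and 8.46 CPM with siNC and at 8.81, 9.39 and 9.47 CPM with siFBXL6. Its groups did not overlap, yet the log2 fold change of 0.12 (95% interval -0.03 to 0.26) did not pass (adjusted p = 0.211 in edgeR's test).

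Levels were compared between members per exon length, as TPM (CPM divided by exon length and rescaled to a common total), computed from the normalized counts and the exon lengths in the table. In the siNC libraries SNHG6 was highest at 137 ± 10.7 TPM (SD, n = 3). SNHG8 at 31.2 ± 3.2 and GAS5 at 28.2 ± 0.654 TPM followed, and their ranges overlapped. SNHG1 (19.8 TPM), SNHG16 (12.9 TPM) and SNHG15 (11.9 TPM) came next, each with a range apart from its neighbours. SNHG5 (8.82 TPM) and SNHG3 (8.47 TPM) overlapped, as did SNHG12 (4.57 TPM) and SNHG7 (4.15 TPM). These levels depend on the exon length counted, which is short for SNHG6 (1247 bases) and long for SNHG16 (5362 bases). In the libraries labelled siFBXL6, SNHG3 was at 12.0 ± 0.239 TPM and SNHG15 at 10.6 ± 0.584 TPM.

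**Figure D2:**
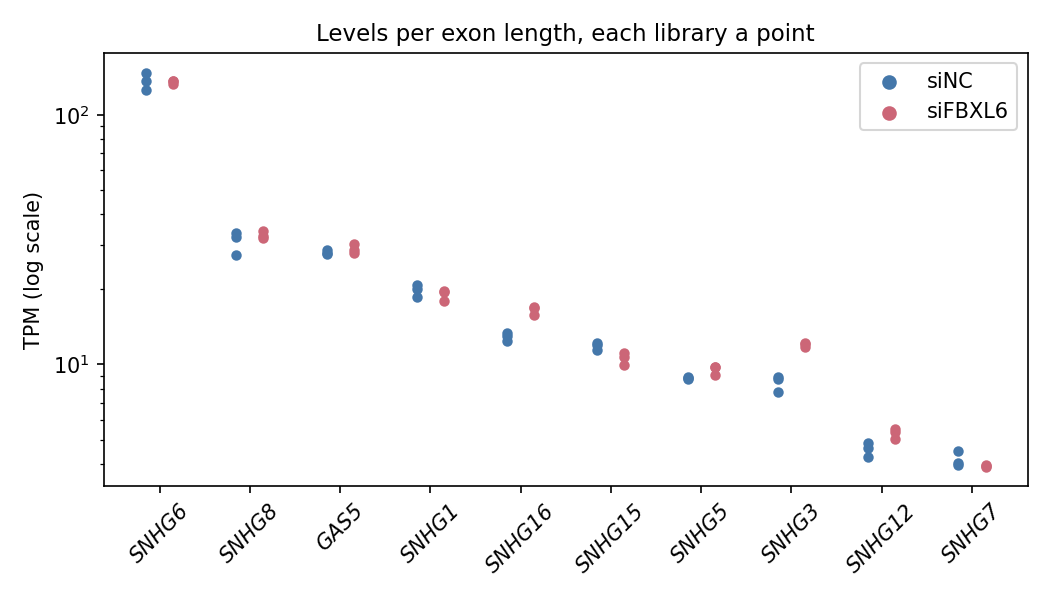
Level per exon length (TPM, log axis) of each host gene, with each library as a point. SNHG6 is highest at a mean of 137 TPM in siNC and SNHG7 lowest at 4.15 TPM, and SNHG3 lies above SNHG5 in the libraries labelled siFBXL6.

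Host genes often sit head to head or overlap with a protein-coding gene, so every tested gene that overlaps a member or starts within 1000 bases of its start was examined. SNHG3 lies inside RCC1, which encodes the exchange factor of the GTPase Ran, on the same strand, with starts 37 bases apart in the table. RCC1 was at 66.8 ± 2.28 CPM with siNC and 68.3 ± 0.445 CPM with siFBXL6 (SD, n = 3 each). Its log2 fold change was 0.03 (95% interval -0.04 to 0.10, adjusted p = 0.49 in edgeR's test), between 0.01 and 0.06 when libraries were left out singly. The log2 ratio of SNHG3 to RCC1, chosen after the values were seen, was -2.56, -2.39 and -2.49 in the siNC libraries and -2.04, -1.99 and -1.99 in the siFBXL6 libraries. The ratio was higher in all 3 libraries labelled siFBXL6, by 0.47 on average (exact two-sided permutation test, p = 0.1). Of the exon bases of SNHG3, 5.92% are shared with RCC1, and how the counting treated reads on shared bases is not given in the sources used here.

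SNHG16 starts 83 bases from RP11-666A8.8, an unnamed transcript on the opposite strand, with no exon base in common. It was counted 55, 68 and 44 times with siNC and 76, 95 and 83 times with siFBXL6. It was higher in all 3 libraries labelled siFBXL6, like SNHG16 itself, by 0.58 on the log2 scale (SE 0.201, adjusted p = 0.02 in edgeR's test). The log2 ratio of SNHG16 to this transcript, also chosen after the values were seen, was 4.69 ± 0.318 with siNC and 4.45 ± 0.129 with siFBXL6 (SD, n = 3 each; exact two-sided permutation test, p = 0.4). The call of the transcript rests on few counts and was lost with DESeq2 (adjusted p = 0.0737) and without siNC replicate 3 (0.0968) or siFBXL6 replicate 2 (0.0975).

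SLC3A2, the heavy chain of several amino acid transporters, starts 188 bases from SNHG1 on the opposite strand. It was at 375 ± 11.2 CPM with siNC and 400.0 ± 13.9 CPM with siFBXL6 (SD, n = 3 each), higher by 0.09 on the log2 scale (adjusted p = 0.0172 in edgeR's test), a call lost with upper-quartile factors (0.0657), with library size alone (0.0672) and without siFBXL6 replicate 2 (0.119) or replicate 3 (0.106). The log2 ratio of SNHG1 to SLC3A2, chosen in the same way, was -3.87 ± 0.095 with siNC and -4.02 ± 0.103 with siFBXL6 (SD, n = 3 each; exact two-sided permutation test, p = 0.2). ZBTB37, a zinc finger gene that starts 800 bases inside the GAS5 span on the opposite strand, was lower by -0.25 on the log2 scale (SE 0.074, adjusted p = 0.00621 in edgeR's test) and missed the threshold without siFBXL6 replicate 1 (0.0513). GAS5-AS1, TRNAU1AP beside SNHG12, FAM69B over SNHG7 and MCMDC2 over SNHG6 did not pass, with log2 fold changes of -0.01, -0.11, -0.30 and -0.08. When libraries were left out singly, these were between -0.25 and 0.30 for GAS5-AS1, -0.16 and -0.07 for TRNAU1AP, -0.37 and -0.19 for FAM69B, and -0.10 and -0.05 for MCMDC2, none of them called. MCMDC2 shares 29.3% of the exon bases of SNHG6 and FAM69B 25.2% of those of SNHG7, both on the opposite strand. The strand setting of the counting is not given, so reads of these pairs cannot be told apart.

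**Figure D3:**
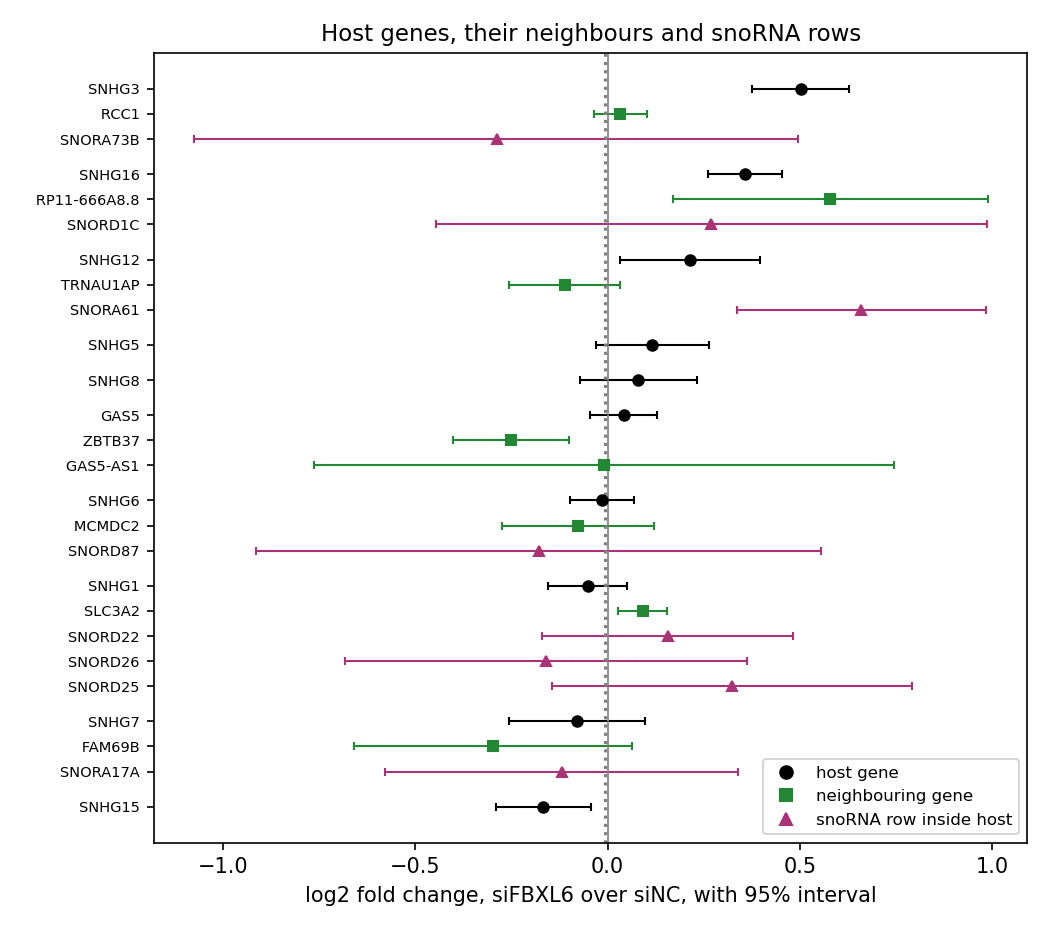
Log2 fold change of siFBXL6 over siNC with its 95% interval for each host gene (circles), the tested genes that overlap it or start within 1000 bases of its start (squares) and the tested snoRNA entries inside it (triangles). The dotted line is the median of all genes (-0.01), and SNHG3 at 0.50 lies apart from RCC1 at 0.03.

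The table has 15 snoRNA entries that lie wholly inside 1 of 7 members, and 14 of them had at least 10 counts in total. An mRNA library captures mature snoRNAs poorly, and 12 of the 15 entries lie wholly within exon bases of their host, so their counts can come from host RNA that retains the intron. Of the 8 entries tested, 1 was called higher and 0 lower in edgeR's test, while of the 73 tested snoRNA entries that lie in 1 region of a chromosome 3 were higher and 4 lower. With DESeq2 the 7 others were likewise not called. No snoRNA entry that lies in 1 region of a chromosome was found inside GAS5, and entries that join distant loci were not searched.

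The entry that changed is SNORA61, inside SNHG12. It is shown because it is the 1 snoRNA entry called of the 8 tested inside members. It spans 130 bases at chr1:28579764-28579893 on the minus strand of GRCh38, and capitals mark the ACA trinucleotide that ends 3 bases before its 3′ end and gives the H/ACA class its name.
SNORA61: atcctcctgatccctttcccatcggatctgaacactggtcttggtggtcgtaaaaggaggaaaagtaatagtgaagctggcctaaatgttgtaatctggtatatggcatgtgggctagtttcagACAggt

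SNORA61 had 83, 80 and 93 counts with siNC and 129, 127 and 157 counts with siFBXL6. Each library labelled siFBXL6 was above each labelled siNC. Its log2 fold change was 0.66 (SE 0.159, 95% interval 0.34 to 0.98, adjusted p = 0.000976 in edgeR's test). Against its host, the log2 ratio of SNORA61 to SNHG12, chosen after the values were seen, was -1.89 ± 0.077 with siNC and -1.44 ± 0.132 with siFBXL6 (SD, n = 3 each; exact two-sided permutation test, p = 0.1). All bases of SNORA61 lie in counted exons of SNHG12 on the same strand. How reads on shared bases were counted is not given, so this ratio cannot separate snoRNA from host RNA. The other SNHG12 entries, SNORD99 and SNORA16A, had 51 and 44 counts in total over the 6 libraries and were not tested. Inside SNHG1, the SNORD22 entry, which joins 2 nearby loci in its 251 bases, was counted 95 to 150 times a library, SNORD25 38 to 61 times and SNORD26 34 to 46 times. SNORA17A in SNHG7 had 316 counts in total, SNORD1C in SNHG16 had 136, SNORD87 in SNHG6 had 129 and SNORA73B in SNHG3 had 99. None of these 7 passed in edgeR's test, and their intervals are wide, from -1.08 to 0.50 for SNORA73B. The entries SNORA73A, SNORD50B, SNORA17B and SNORD1B had 32, 42, 26 and 24 counts in total.

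Of 23 further noncoding snoRNA hosts, 18 were tested, and under the siFBXL6 label 4 were higher and 2 lower (33.3% called, beside 40.2% of all genes), with a median log2 fold change of 0.01. SNHG17 was at 13.0 ± 0.635 CPM with siNC and 10.3 ± 0.151 CPM with siFBXL6 (SD, n = 3 each), a difference of -0.33 on the log2 scale (adjusted p = 8.83e-05 in edgeR's test). SNHG14, the long host of the imprinted snoRNA clusters on chromosome 15, fell from 24.8 ± 0.931 to 21.3 ± 0.831 CPM. LRRC75A-AS1, now named SNHG29, rose from 43.5 ± 2.88 to 48.8 ± 2.65 CPM. Counting instead every other gene with a snoRNA entry inside its span on the same strand gave 138 tested hosts, most of them protein-coding, of which 45 were higher and 34 lower (57.2% called, beside 40.2% of all genes). ODC1, the first enzyme of polyamine synthesis, RABGGTB, a subunit of the transferase that prenylates Rab proteins, and TCP1, a subunit of the cytosolic chaperonin, had the smallest p, with log2 fold changes of 0.35, 0.33 and 0.28.

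Of 21 genes for the proteins that package snoRNAs and their assembly factors, 5 were higher and 3 lower (38.1% called, beside 40.2% of all genes). NOP56, a core protein of box C/D particles and itself a snoRNA host, was at 322 ± 3.59 CPM with siNC and 267 ± 5.89 CPM with siFBXL6 (SD, n = 3 each) and fell by 0.27 on the log2 scale (edgeR, adjusted p = 2.96e-09). SNU13, which binds the box C/D motif, rose from 13.9 ± 0.34 to 17.5 ± 0.581 CPM, a log2 fold change of 0.33. DKC1, the pseudouridine synthase of H/ACA particles, was higher by 0.13. With upper-quartile factors 4 were higher and 6 lower, so the balance of the list depends on the scaling. Without siNC replicate 3 it was 3 higher and 5 lower, and without siFBXL6 replicate 2 it was 3 higher and 1 lower.

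Of 23 genes of nonsense-mediated decay, which clears spliced host RNA, 7 were higher and 7 lower (60.9% called, beside 40.2% of all genes), with a median log2 fold change of -0.01. UPF3B and UPF3A, paralogs that bridge the exon junction complex to the decay machinery, fell by 0.52 and 0.33 on the log2 scale (adjusted p = 3.97e-15 and 1.07e-09 in edgeR's test). UPF3B went from 414 ± 22.2 to 288 ± 4.83 CPM (SD, n = 3 each). DCP2, a decapping enzyme, rose from 25.9 ± 0.66 to 33.8 ± 1.12 CPM, a log2 fold change of 0.38. The higher genes numbered 4 with upper-quartile factors, with library size alone and without siFBXL6 replicate 2. Whether these changes bear on the members was not tested.

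Of 16 genes of mTORC1 and TOP translation control, 4 were higher and 3 lower (43.8% called, beside 40.2% of all genes). EIF4EBP2, a repressor of cap-dependent translation that mTORC1 inactivates, rose by 0.41 on the log2 scale. RPS6KB1, the kinase of ribosomal protein S6, and MLST8, a subunit of mTORC1, fell by 0.23 and 0.36 (adjusted p = 1.31e-07 and 4.34e-06 in edgeR's test). With library size alone 3 were higher and 5 lower, and with upper-quartile factors 3 were higher and 4 lower. The balance of this list thus also depends on the scaling.

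Among 20 other translation genes listed as TOP mRNAs, 14 were higher and 3 lower (85% called, beside 40.2% of all genes), with a median log2 fold change of 0.10 beside -0.01 over all genes. With upper-quartile factors or library size alone 10 were higher. Genes with many counts, as in this list, can be called at small changes. Over all genes the median absolute log2 fold change was 0.18. The search of start sites found a pyrimidine run in 13 of the 16 genes of this list that the promoter table holds. NACA, a subunit of the nascent polypeptide-associated complex, was at 552 ± 19.3 CPM with siNC and 631 ± 4.72 CPM with siFBXL6, and the elongation factor gene EEF2 at 1603 ± 32.9 and 1797 ± 18.4 CPM (SD, n = 3 each). EEF1B2, an exchange factor subunit and also a snoRNA host, went the other way by -0.31. Of 79 cytosolic ribosomal protein genes 26 were higher and 5 lower (39.2% called), with a median of 0.04. RPL13A, RPL10 and RPL27 had the smallest p, with log2 fold changes of 0.24, 0.24 and 0.19. Ribosomal protein genes have many near-identical pseudogenes, so these counts are uncertain. The lower genes numbered 9 with upper-quartile factors and 11 with library size alone, and the median stayed above 0 under each scaling tried. Without siFBXL6 replicate 3 the higher genes numbered 17, and the lower ones numbered 8 without siNC replicate 1 and 3 without siFBXL6 replicate 2.

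Markers of urothelial and epithelial cells in general, not of T24 itself, were present in part. Of 16 urothelial and epithelial markers 12 were tested, and KRT7 had the highest CPM, at 1038 ± 21.1 with siNC and 983 ± 9.06 with siFBXL6 (SD, n = 3 each). UPK1A was at 0 in every library, and KRT20, UPK1B and UPK3A had too few counts to be tested. The summed level of this list was between 3956 and 4085 CPM in the siNC libraries and between 3620 and 3635 CPM in the siFBXL6 libraries. Of the 12 tested, 7 were lower and 2 higher in edgeR's test (75% called, beside 40.2% of all genes). The lower ones were GATA3, KRT5, KRT8, FOXA1, KRT19, EPCAM and KRT7, with log2 fold changes of -0.53, -0.48, -0.29, -0.27, -0.15, -0.15 and -0.08, and the higher ones were TP63 and CDH1, with 0.18 and 0.16. Of 5 mesenchymal markers 2 were higher and 2 lower (80% called). FN1 had the highest CPM of these, at 2429 ± 71.9 with siNC and 2180.4 ± 28.3 with siFBXL6 (SD, n = 3 each). VIM and TWIST1 were higher (log2 fold changes 0.70 and 0.49), and CDH2 and FN1 were lower (-0.59 and -0.16). T24 is usually described as a line with abundant VIM and little CDH1, while here VIM was at 15.6 CPM and CDH1 at 118 CPM with siNC. The study's methods state that its cell lines had been checked by short tandem repeat profiling. The identity of the line was not tested here. The immune markers tested summed to 7.63, 8.35 and 8.05 CPM with siNC and 20.7, 18.8 and 20.1 CPM with siFBXL6. Most of this came from CD68, which is also a lysosomal gene, at 6.74, 6.54 and 6.81 CPM with siNC and 19.5, 17.7 and 19.0 CPM with siFBXL6, and it was the 1 gene called of the 4 tested, with a log2 fold change of 1.49. CD3E was too low to test, and PTPRC was at 0.508 CPM with siNC and 0.331 CPM with siFBXL6. Endothelial markers summed to at most 4.07 CPM in any library, and 1 of 4 was called, PECAM1, with 25, 40 and 37 counts with siNC and 79, 65 and 108 with siFBXL6 (log2 fold change 1.28, adjusted p = 4.4e-05 in edgeR's test). Fibroblast markers summed to at most 41.6 CPM, led by COL1A1, which was the 1 called of 6 and was lower (log2 fold change -0.15, adjusted p = 0.00427 in edgeR's test). In a bulk sample fewer cells of a type and less RNA per cell cannot be told apart. The part of these differences in the results on host genes was not tested.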

How the data were processed

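The authors deposited 1 table of raw counts per gene for the 6 libraries. The study's methods name Trimmomatic, HISAT2 and featureCounts, while the submitters' processing notes name fastp 0.23.0, STAR and featureCounts from Subread 1.5.1, so the trimmer and aligner are uncertain. The genome was GRCh38. The annotation release and strand setting are not given in the sources used here, nor which siRNA against FBXL6 was used. Label endings -1, -2 and -3 were read as replicates, an assumption, since the study's siRNAs have similar names. The table's exon length per gene, in bases, was used for TPM.

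From the deposited counts, low genes were removed (filterByExpr), TMM factors were computed and the quasi-likelihood test of edgeR was run (edgeR 4.0.16, limma 3.58.1, R 4.3.3), with condition as the only term and Benjamini-Hochberg adjustment over all genes tested. A gene was called at an adjusted p under 0.05. The steps were tested on simulated data. Entries whose loci lie on several chromosomes or strands, or span over 3000000 bases, were left out of the search by position. Alternatives were DESeq2 1.42.0, other scalings and filters, a replicate block, leaving out each library and a threshold of 0.01. The members and gene lists were chosen with earlier results of these data known. Named genes were all members, FBXL6, ACTB, the 3 smallest p of each list, neighbours by position and snoRNA entries with at least 10 counts. CD68, the marker genes and the ratios of 2 genes were added to these. Sequences and snoRNA positions came from RefSeq (GRCh38.p14), except that of SNORA61, read from GRCh38 at the table's coordinates. 1 listed marker is not reported here.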

Additional observations from a re-analysis of the deposited data

How the results depend on the processing

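Across the alternatives the count of genes called stayed within 1.5 times that of the main setting, and SNHG3 and SNHG16 stayed higher and called under each. The number of members called lower fell from 1 to 0 with DESeq2 and at an adjusted p under 0.01, and was between 0 and 1 with the libraries left out in turn. SNHG15 had a log2 fold change of -0.1656 with DESeq2 (adjusted p = 0.0905) and between -0.2039 and -0.127 with a library left out (adjusted p between 0.0211 and 0.152). SNHG12 was between 0.1675 and 0.2566, SNHG6 between -0.06914 and 0.0398, and SNHG8 between -0.004483 and 0.1368 with a library left out, the last 2 changing sign without being called. The causes were not tested. GAS5-AS1 was between -0.2455 and 0.2993, SNORD22 between -0.01556 and 0.354 and SNORD87 between -0.4225 and 0.1144, none of them called.

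With the replicate block, GAS5-AS1 was at 0.002208, SNHG15 kept its call, and 8408 genes were called, against 8569 without it. The deviations of same-numbered libraries from their group means had correlations of -0.0108, 7.99e-05 and 0.0133. No effect shared by number was seen, which does not exclude that the libraries were paired. Few counts limit the snoRNA entries.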
